A study of Mus musculus with 4 samples.

Results

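The genes described here are 10 classical genes of the epithelial to mesenchymal transition (EMT), followed during differentiation of mouse embryonic stem cells (ESCs). They were chosen by symbol from a fixed list, and all 10 were found among the 24421 genes of the count tables. They are the cell adhesion genes Cdh1, Epcam and Cdh2, the transcription factor genes Snai1, Snai2, Twist1, Zeb1 and Zeb2, the intermediate filament gene Vim and the matrix gene Fn1. The Illumina TruSeq data comprise 4 libraries of bulk RNA from R1, an established mouse ESC line, with 2 replicates in each state that the methods describe as grown and treated separately. Undiff is the state before retinoic acid (RA), described by the methods of the study as ESCs kept with leukaemia inhibitory factor and by the sample labels as embryoid bodies, which are floating aggregates of ESCs. Day4 is embryoid bodies grown without that factor and then exposed to RA for 4 days, at 2 µM by the methods and the series description and at 2 mM by the sample protocol. By the methods, the embryoid bodies grew for 4 days before the 4 days of RA. The states described there therefore differ in culture form, growth factor and days of growth as well as in RA, and these cannot be told apart. A difference in culture form does not follow from the sample labels. All values come from this single line.

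In EMT, cells joined in an epithelial sheet lose their E-cadherin junctions, change their cytoskeleton and matrix, and become migratory mesenchymal cells. The transcription factors of the Snail, Twist and Zeb families drive this change, and Snail and Zeb proteins bind E-box DNA elements and repress Cdh1 directly. The transition takes place in the embryo when the epiblast forms mesoderm at gastrulation and when neural crest cells leave the neural tube. ESCs express E-cadherin and EpCAM on their surface, as the epiblast does.

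Counts on genes ranged from 32099074 to 47730944 per library. Values are given as normalized counts, which are counts scaled by TMM to a common effective library size. The states were compared by the quasi-likelihood test of edgeR over the 19891 genes that had any count, with Benjamini-Hochberg adjustment. A gene was called differentially expressed (DEG) when its adjusted p was 0.05 or less, its mean reached 5 normalized counts and its level changed by 1 or more on the log2 scale in either direction. SE stands for the standard error of the log2 fold change. In bulk RNA, fewer cells of a type and less RNA per cell cannot be told apart. The labelled states were checked against marker genes. The summed level of 6 pluripotency markers was between 3423 and 3500 CPM (counts relative to library size) in Undiff and between 12.3 and 15.8 CPM in Day4, and that of 7 mesoderm and mesenchyme markers was between 39.4 and 40.1 CPM in Undiff and between 1837 and 1984 CPM in Day4. Visceral endoderm markers summed to between 32.5 and 38.0 CPM in Undiff and 16.8 and 17.2 CPM in Day4, but 5 of the 8 genes (Afp, Ttr, Apoa1, Sox17 and Foxa2) were DEGs higher in Day4 and 2 were lower. Most of the Undiff sum was Cubn, with 27.7 and 32.6 CPM in Undiff and 2.63 and 2.39 in Day4. Neural markers summed to between 136 and 138 CPM in Undiff and 110 and 121 CPM in Day4, and 4 of these 6 genes were DEGs lower in Day4. Nes was the 1 higher gene, with 42.4 and 45.5 CPM in Undiff and 102 and 115 in Day4, and made up most of the Day4 sum. Blood markers summed to between 1.75 and 1.84 CPM in Undiff and 68.7 and 79.9 CPM in Day4. Of these 4 genes, the globin genes Hba-x and Hbb-bh1 were DEGs higher in Day4 and made up nearly all of the Day4 sum. The other 2 were not DEGs. Gata1 had 1.64 and 1.53 CPM in Undiff and 1.12 and 1.30 in Day4, and Ptprc had 2 and 5 counts in Undiff and 0 in both Day4 libraries. The part of each cell type in the levels below was not tested.

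All 10 genes were DEGs, 7 of them higher and 3 of them lower in Day4. Among all genes tested, 42.8% were DEGs, with 22.2% higher and 20.6% lower in Day4, so that a large part of the transcriptome changed between the states. Only the 16472 tested genes that reached the minimum mean could be called, and the shares among those are higher. The higher genes were Cdh2, Snai1, Snai2, Twist1, Zeb1, Zeb2 and Vim, and the lower genes were Cdh1, Epcam and Fn1. For each of the 10, no Undiff value fell within the range of Day4 or the reverse, which was also the case for 85.4% of all genes tested. The members had between 25 and 52362 counts in a library, so that every one of them lay above the floor of 3 counts in every library. All 10 had a mean normalized count above the minimum.

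**Figure D1:**
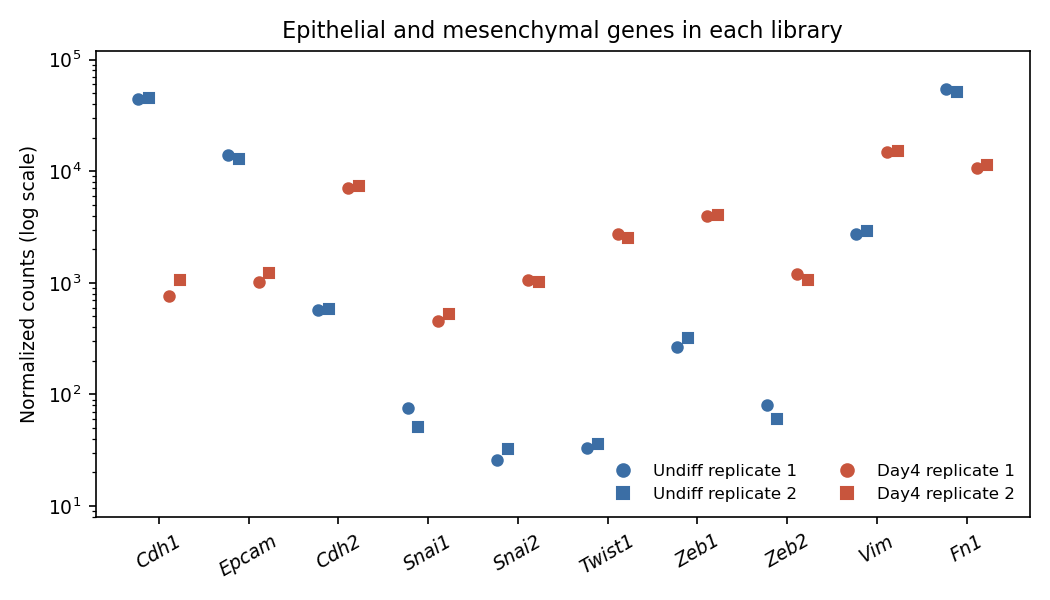
Normalized counts (log scale) of the 10 genes in each of the 4 libraries, with Undiff in blue, Day4 in red, replicate 1 as circles and replicate 2 as squares. Cdh1, Epcam and Fn1 are lower in both Day4 libraries, and the other 7 genes are higher.

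Cdh1 (chromosome 8, 106603351 to 106670246 of GRCm38, plus strand) encodes E-cadherin, the adhesion protein of epithelial junctions. It had 44288 and 45013 normalized counts in the replicates of Undiff, against 760.5 and 1059 in those of Day4. Undiff was high in both replicates, and the Day4 replicates were far below and further apart from each other in relative terms. The log2 fold change was -5.60 (SE 0.10, edgeR adjusted p = 2.0e-14), a 48.5-fold fall, and 566 of the genes tested had a lower log2 fold change. Epcam (chromosome 17, 87635979 to 87651129, plus strand) encodes an adhesion protein of epithelia that is also present on ESCs. It had 13855 and 12943 normalized counts in Undiff and 1017 and 1224 in Day4. Both Day4 values were again far below both Undiff values, with a log2 fold change of -3.57 (SE 0.07, edgeR adjusted p = 5.2e-14), or 11.9-fold. No other gene of the annotation overlaps Cdh1 or Epcam.

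Since Snail and Zeb factors bind the E-box CAGGTG, these letters were searched in the promoter windows of RefSeq on GRCm38.p6, which run from 250 bases before to 50 bases after a gene start. Both strands were searched, so that a match reads CAGGTG or CACCTG. Windows were matched by symbol for 5 of the 10 genes, Epcam, Snai1, Twist1, Zeb2 and Vim. Cdh1, Cdh2, Fn1, Snai2 and Zeb1 were not matched. Of all 32851 windows, 20.2% held the letters at least once and 2.88% held them more than once. The Epcam window held them 2 times, with first bases 187 and 19 bases before the gene start, and the Snai1 window held them once, 126 bases before the start. The window of Twist1, the 4 windows of Zeb2 and the window of Vim did not hold these letters. The upstream bases of the 2 windows with a match are printed, with the E-box letters in capitals.
Epcam, chr17:87635729-87635978, plus strand: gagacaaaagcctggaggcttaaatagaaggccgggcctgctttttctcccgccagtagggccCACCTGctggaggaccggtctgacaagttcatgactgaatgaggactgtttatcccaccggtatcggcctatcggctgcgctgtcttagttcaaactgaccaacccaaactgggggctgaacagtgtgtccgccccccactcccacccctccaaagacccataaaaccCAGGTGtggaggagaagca
Snai1, chr2:167537945-167538194, plus strand: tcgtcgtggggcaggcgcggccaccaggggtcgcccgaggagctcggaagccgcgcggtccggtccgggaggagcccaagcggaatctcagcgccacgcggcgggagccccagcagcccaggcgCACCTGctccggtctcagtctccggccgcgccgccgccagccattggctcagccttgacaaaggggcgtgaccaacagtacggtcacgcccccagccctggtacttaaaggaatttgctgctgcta
A match is a description of the letters, and binding was not measured in these data.

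Snai1 and Snai2, zinc finger factors of the Snail family, were low in Undiff and rose. Snai1 (chromosome 2, 167538195 to 167542814, plus strand) had 75.0 and 51.5 normalized counts in Undiff and 456 and 526 in Day4. The Undiff replicates differed from each other by more, in relative terms, than those of Day4, and rested on 72 and 43 counts. Its log2 fold change of 2.95 (SE 0.15, edgeR adjusted p = 6.1e-10) was the smallest among the transcription factors of the list. Snai2 (chromosome 16, 14705852 to 14709385, plus strand), also known as Slug, had 26.1 and 32.3 normalized counts in Undiff and 1049 and 1017 in Day4. It went from the lowest count of the list in Undiff to more counts than Snai1 in Day4, and its log2 fold change was 5.15 (SE 0.13, edgeR adjusted p = 3.4e-13). The log2 fold change of Snai2 exceeded that of Snai1 by 2.20, and by between 1.62 and 2.73 over the 4 pairs of an Undiff and a Day4 library.

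Twist1 (chromosome 12, 33957671 to 33959829, plus strand), a basic helix-loop-helix factor needed in cranial mesenchyme, had 33.3 and 35.9 normalized counts in Undiff and 2745 and 2523 in Day4. It was near the bottom of the list in Undiff and showed the highest log2 fold change of the 10 genes, 6.25 (SE 0.11, edgeR adjusted p = 1.7e-14), or 75.9-fold. Of all genes tested, 363 had a higher log2 fold change.

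The Zeb genes encode zinc finger and homeodomain repressors. Zeb1 (chromosome 18, 5591860 to 5775467, plus strand) had 265 and 320 normalized counts in Undiff and 3953 and 4047 in Day4, a log2 fold change of 3.78 (SE 0.07, edgeR adjusted p = 4.5e-14). Zeb2 (chromosome 2, 44983632 to 45117395, minus strand) had 80.2 and 59.8 in Undiff and 1191 and 1061 in Day4, a log2 fold change of 3.99 (SE 0.12, edgeR adjusted p = 3.4e-12). Both genes were higher in every Day4 library, and their fold changes were close. Zeb2 exceeded Zeb1 by 0.20 on the log2 scale, with values from -0.21 to 0.69 over the pairs of libraries, so that no direction of the difference held. Exons of Zeb2 overlap those of the opposite-strand gene Zeb2os, which had 0 counts in both Undiff libraries and 32 and 50 in Day4. Exons of Zeb1 overlap the opposite-strand gene Gm10125, with 0 counts in Undiff and 5 and 6 in Day4. The count of a gene with such a partner is uncertain where the strand was not used in counting.

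Cdh2 (chromosome 18, 16588877 to 16809246, minus strand) encodes N-cadherin, the cadherin of mesenchymal and neural cells that takes the place of E-cadherin in a cadherin switch. It had 568 and 584 normalized counts in Undiff and 7042 and 7376 in Day4. The replicates of each state lay close together, and the log2 fold change was 3.65 (SE 0.06, edgeR adjusted p = 6.2e-15), or 12.5-fold. Vim (chromosome 2, 13573927 to 13582826, plus strand) encodes vimentin, the intermediate filament protein of mesenchymal cells. It had 2756 and 2913 normalized counts in Undiff and 14825 and 15087 in Day4, so that it was already well expressed before differentiation and rose 5.28-fold (log2 fold change 2.40, SE 0.05, edgeR adjusted p = 3.3e-14). This was the smallest log2 fold change of the 7 higher genes.

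Fn1 (chromosome 1, 71585520 to 71653200, minus strand) encodes fibronectin, a matrix glycoprotein that is usually counted as a mesenchymal marker. It had 54565 and 51393 normalized counts in Undiff and 10708 and 11465 in Day4. Both Undiff libraries were above both Day4 libraries, opposite to the other mesenchymal members Vim and Cdh2. The log2 fold change was -2.26 (SE 0.05, edgeR adjusted p = 5.6e-14), a 4.78-fold fall. Exons of Fn1 overlap those of the opposite-strand gene Apol7d, which had between 12 and 58 counts in a library. Fibroblast feeder cells are a possible part of ESC cultures, and their markers Thy1, Postn, Lum, S100a4 and Col1a2 summed to between 34.1 and 37.7 CPM in Undiff and 371 and 386 CPM in Day4. Col1a2 made up most of the Day4 sum, with 312 and 307 CPM. All 5 genes are also among the mesenchymal matrix and surface genes listed below, so that they cannot tell feeder cells from other mesenchyme. Of these 5 genes, Thy1 and S100a4 were DEGs lower in Day4, as Fn1 was, and the other 3 were higher. Lum had 1 count in each Undiff library, and Postn had 57 and 40. The part of such cells in the level of Fn1 or Vim was not tested.

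**Figure D2:**
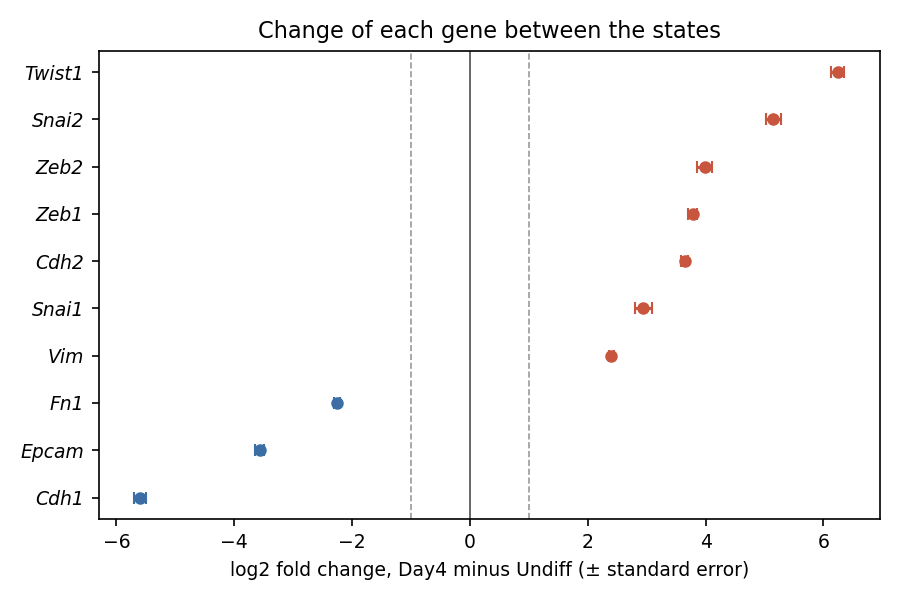
The log2 fold change of Day4 against Undiff for each of the 10 genes, as points with bars of 1 standard error, and dashed lines at the minimum of 1 in either direction. Cdh1 lies lowest at -5.60 and Twist1 highest at 6.25.

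To compare levels between genes, counts were divided by the length of the merged exons of the gene in GENCODE vM21 and scaled to the same total in every library (TPM). In Undiff the order was led by Cdh1 with 951 ± 7.57 TPM, Epcam with 595 ± 30.8 and Fn1 with 442 ± 20.3 (SD, n = 2 each). Vim followed with 58.2 ± 2.08 TPM, and Cdh2 had 6.96 ± 0.11 TPM (SD, n = 2 each). The transcription factors were lowest, from Snai1 with 3.80 ± 1.02 TPM through Zeb1, Twist1 and Snai2 to Zeb2 with 0.342 ± 0.072 TPM (SD, n = 2 each). The 2 adhesion genes of epithelia and Fn1 thus stood far above the remaining 7 genes before differentiation. With the length of merged exons, no neighbours in the order overlapped between replicates.

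In Day4 the order differed. Vim led with 333 ± 4.05 TPM, and Twist1 was next with 171 ± 10.2 TPM (SD, n = 2 each), above every other transcription factor of the list. Fn1 remained high with 100.1 ± 4.81 TPM, close to Cdh2 with 94.3 ± 3.07 TPM (SD, n = 2 each). Snai2 with 53.9 ± 1.20 TPM and Epcam with 53.9 ± 7.0 TPM (SD, n = 2 each) overlapped between replicates, and they were the only neighbours in the order that did. Zeb1 had 41.1 ± 0.67 TPM and Snai1 had 32.0 ± 3.19 TPM, and Cdh1, the leading gene of Undiff, stood ninth of 10 with 21.0 ± 4.86 TPM, above Zeb2 with 5.96 ± 0.49 TPM (SD, n = 2 each). With the length of the longest transcript, Cdh2 stood above Fn1 and Zeb1 above Epcam and Snai2 in Day4, and Zeb1 above Snai1 in Undiff, so that the order of these neighbours depends on the length used. By that length, Epcam and Fn1 overlapped between the Undiff replicates, as did Zeb1 and Snai1.

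**Figure D3:**
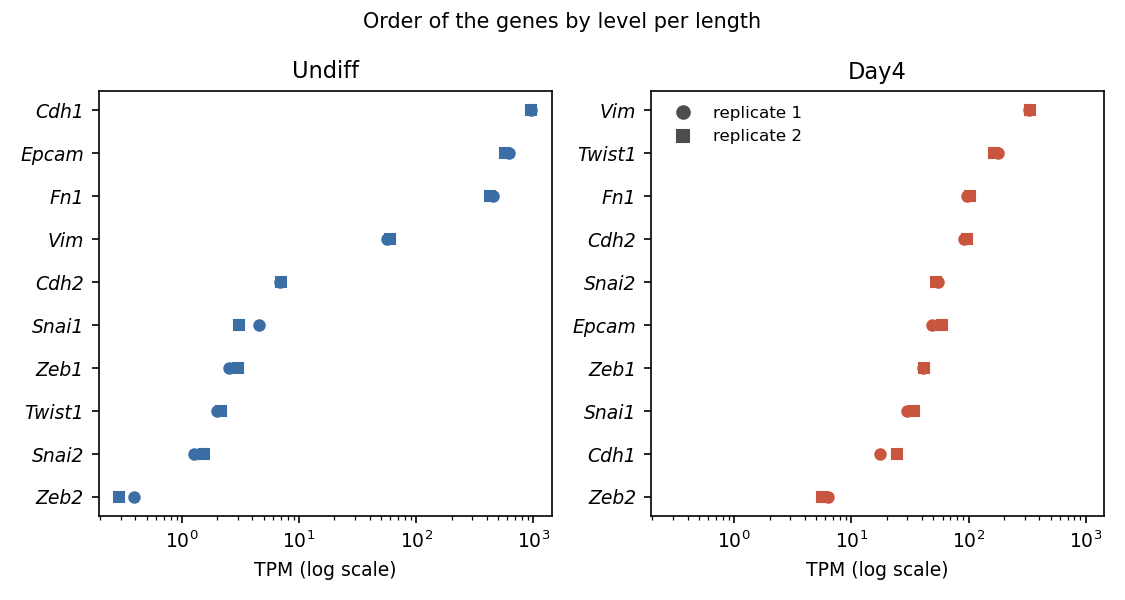
TPM (log scale) of the 10 genes in each replicate of Undiff (left) and Day4 (right), with the genes ordered by their mean within the state. Cdh1 falls from the first place in Undiff to the ninth in Day4, and Vim and Twist1 lead in Day4.

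The relative use of related genes was taken per length within each library. Cdh1 made up 99.3% of Cdh1 plus Cdh2 in both Undiff replicates, and 16.0% and 20.2% in Day4 replicates 1 and 2, with exact 95% binomial intervals (Clopper-Pearson) of 15.0% to 17.1% and 19.3% to 21.1%. The intervals cover counting error only and leave out the spread between replicates. Those of the Day4 replicates do not overlap. Reads without molecular identifiers are also not independent molecules, so that the intervals are too narrow. The mean share went from 99.3% to 18.1% ± 2.97 (SD, n = 2), a difference many times the spread between replicates. A two-sided exact permutation test of 2 libraries against 2 cannot go below p = 0.333, which it gave here.

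Snai1 made up 78.2% and 66.5% of Snai1 plus Snai2 in Undiff and 35.2% and 39.2% in Day4. The Undiff shares rested on few counts, with exact 95% binomial intervals of 69.2% to 85.5% and 54.5% to 77.0%, and still lay above both Day4 shares (p = 0.333 in the same exact test). Of these 2 genes, Snai1 had the larger share in Undiff and Snai2 in Day4. For the Zeb pair, Zeb1 made up 86.5% and 91.2% in Undiff and 86.6% and 88.1% in Day4. These ranges overlapped, and the means of 88.9% ± 3.33 and 87.3% ± 1.09 (SD, n = 2 each) differed by less than the SD of Undiff (p = 1 in the exact test).

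**Figure D4:**
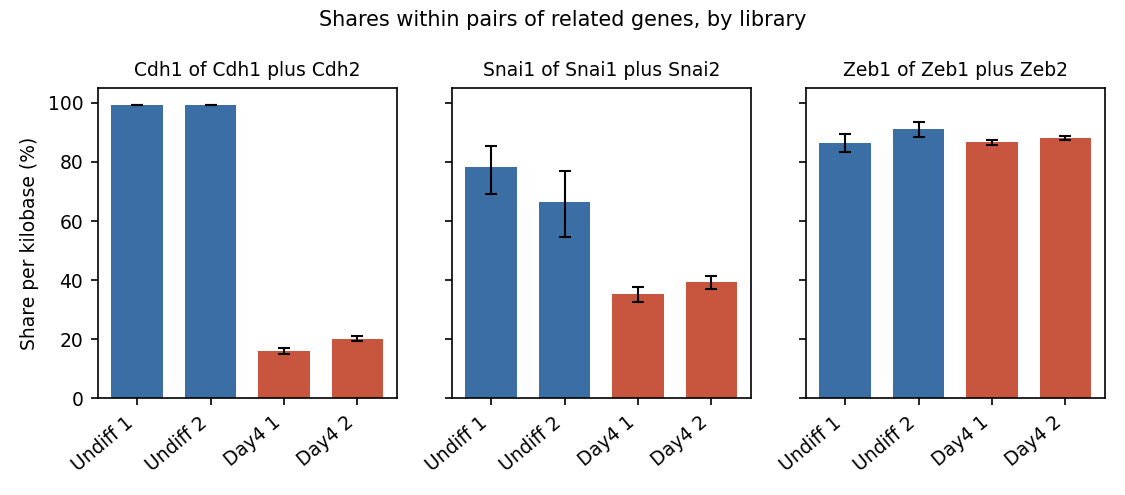
Share of the first gene in each pair of related genes per kilobase, in percent, for each library, with bars that start at 0 and error bars of the exact 95% binomial interval. The Cdh1 share drops from 99.3% to 16.0% and 20.2%, the Snai1 share also drops, and the Zeb1 share is between 86.5% and 91.2% in every library.

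Lists of genes related to the 10 are given by counts, beside the 22.2% of all genes that were DEGs higher and the 20.6% that were lower in Day4, and the median log2 fold change over all genes tested was -0.03. The shares over all genes include genes under the minimum mean, which could not be called. Apart from the microRNA genes, few list genes lay under it, so that these shares are low for a comparison. Of 27 epithelial junction and identity genes, 15 were lower and 3 higher in Day4, with a median log2 fold change of -1.64. The lowest were Pkp3, a desmosomal plakophilin (log2 fold change -3.75), St14, which encodes the membrane protease matriptase (-3.71), and Rab25, a GTPase of epithelial membrane recycling (-3.10). The 3 higher genes were Dsc2, a desmosomal cadherin (2.18), and the simple keratin genes Krt19 (1.45) and Krt7 (1.13). Without Undiff replicate 2, Krt7 had a log2 fold change of 0.90 and was not called.

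The other 9 of the 27 were not DEGs, and 6 of these had an adjusted p of at most 0.05 by edgeR with a log2 fold change under the minimum. They were the adhesion genes Dsg2, Cdh3, Jup, Lsr, Tjp1 and F11r, with log2 fold changes from -0.80 to 0.49. Krt8 had 3938 and 3910 normalized counts in Undiff and 4047 and 4085 in Day4 (log2 fold change 0.05, adjusted p = 0.30 from edgeR). Krt18, whose keratin pairs with that of Krt8, had a log2 fold change of -0.01 (adjusted p = 0.89 from edgeR), and Dsp, the desmosomal plaque gene, one of 0.08 (adjusted p = 0.22 from edgeR). Cdh1 and Epcam were thus many-fold lower in Day4, while these 3 keratin and plaque genes differed by at most 1.06-fold between the states.

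All 13 epithelial transcription and splicing factors were DEGs, 11 lower and 2 higher, with a median log2 fold change of -2.68. Klf5 (-4.65) and Tfap2c (-4.55), transcription factors shared by ESCs and trophoblast, fell most, and Ovol2, a repressor of Zeb1 and of EMT, had a log2 fold change of -3.81. Grhl2, an activator of Cdh1, and Esrp1, a splicing factor of epithelial isoforms, were chosen after their values were seen for these known roles. Grhl2 had 2228 and 2386 normalized counts in Undiff and 172 and 206 in Day4, and Esrp1 had 3450 and 3258 in Undiff and 289 and 360 in Day4. The fall of both exceeded the spread between replicates many times. The 2 higher genes were Trp63 (3.54), with 5 and 3 counts in Undiff and 47 and 73 in Day4, and Ehf (1.24), with 5 and 12 counts in Undiff and 24 and 27 in Day4. Both are rare transcripts, and Ehf was not called without Undiff replicate 1 (log2 fold change 0.65, against 2.09 without Undiff replicate 2), without Day4 replicate 1 (1.12), with thinning to equal totals (1.01) or by DESeq2 (1.11 with shrinkage).

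Of 17 catenin genes and other cadherin genes, 9 were higher and 2 lower in Day4, with a median log2 fold change of 1.32. Cdh8 (7.92), Cdh11 (7.62) and Cdh5 (5.76) rose most. Cdh11, a cadherin of mesenchyme, had 72.9 and 67.0 normalized counts in Undiff and 13493 and 14174 in Day4. Its Day4 counts exceeded those of Cdh2 in either Day4 library, without scaling by gene length. Cdh8 had only 9 and 2 counts in Undiff, and its log2 fold change was 9.23 without Undiff replicate 1 and 7.32, below that of Cdh11, without Undiff replicate 2. Cdh5 is the cadherin of endothelium, and the 5 endothelial markers fixed for the analysis, which include it, summed to between 162 and 165 CPM in Undiff and 276 and 282 CPM in Day4. Of the 5, Cdh5, Kdr and Emcn were DEGs higher in Day4, with Emcn at 1 and 0 counts in Undiff, and Pecam1 and Tek were lower. Pecam1 had 138 and 134 CPM in Undiff and 62.1 and 62.2 in Day4. The part of endothelial cells in the rise of Cdh5 was not tested. The 2 lower genes were Cdh15 (-1.26) and Vcl (-1.18), which encodes the junctional actin linker vinculin. Without Day4 replicate 2, Cdh15 had a log2 fold change of -0.99 and was not called, and exons of Vcl overlap the opposite-strand gene Ap3m1.

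Of 21 other transcription factors associated with EMT, 13 were higher and 3 lower, with a median log2 fold change of 1.81. Foxc2 (9.32), Sox9 (7.56) and Foxc1 (6.00), factors of mesenchyme and of skeletal precursors, rose most. Foxc2 had 5 and 1 counts in Undiff and 2071 and 2927 in Day4, and its log2 fold change was 10.71 without Undiff replicate 1 and 8.70 without Undiff replicate 2. The third Snail gene, Snai3, went the other way from Snai1 and Snai2, from 316 and 303 normalized counts in Undiff to 2.09 and 3.84 in Day4 (log2 fold change -6.59, SE 0.25, edgeR adjusted p = 2.6e-11). Snai3 thus had more normalized counts than Snai1 or Snai2 in both Undiff libraries, without scaling by gene length. Klf8 (-1.25) was also lower. Markers of neural crest, another source of mesenchyme, summed to between 32.1 and 34.9 CPM in Undiff and 149 and 154 CPM in Day4, and were mixed. Ets1 and Ngfr were DEGs higher in Day4, Foxd3 had 356 and 348 counts in Undiff and 1 and 0 in Day4, and Sox10 had between 11 and 30 counts in a library.

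Of 31 mesenchymal matrix and surface genes, 23 were higher and 5 lower, with a median log2 fold change of 2.52, and Cd44, Tagln and Lox were not DEGs. Cd44 and Tagln had log2 fold changes of 0.04 and 0.09. Lox lay just under the minimum, with a log2 fold change of 0.97 (edgeR adjusted p = 4.0e-06). Col3a1, a fibrillar collagen gene, had 77.1 and 57.4 normalized counts in Undiff and 40193 and 36401 in Day4 (log2 fold change 9.14). Fap, a fibroblast surface protease gene, had 0 counts in both Undiff libraries and 48 and 73 in Day4, at least 15.8-fold higher against a floor of 3 counts per library. Postn, which encodes the matrix protein periostin, had a log2 fold change of 5.48. Fn1 was lower in Day4 while most of the other matrix genes listed were higher. Among the lower genes were S100a4 (-4.03) and the surface glycoprotein gene Thy1 (-3.80), both of which are often listed as mesenchymal.

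Receptors of fibronectin and filament partners of vimentin were mixed, with 7 of 19 genes higher, 6 lower and a median log2 fold change of 0.47. Of the higher genes, Itgb5 lay at the minimum with a log2 fold change of 1.00, and by DESeq2 6 genes of the list were higher. Integrin genes made up the highest, Itgb8 (4.31), Itgb3 (3.04) and Itga8 (2.62). The main fibronectin receptor is the pair of Itga5, with a log2 fold change of -0.20, and Itgb1, with 0.47, and neither was a DEG. The lowest were the neuronal and muscle filament genes Ina (-5.49), Prph (-3.72) and Synm (-1.93). Exons of Ina and Synm overlap the opposite-strand genes Nt5c2 and Ttc23, and those of Itga8 overlap a rare opposite-strand transcript.

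Of 21 corepressors and turnover factors of Snail and Zeb, 7 were higher and 3 lower, with a median log2 fold change of 0.44. The paralogous corepressors of Zeb, Ctbp1 and Ctbp2, moved in opposite directions. Ctbp1 had 2252 and 2243 normalized counts in Undiff and 10200 and 9427 in Day4 (log2 fold change 2.13), and Ctbp2 had 13687 and 13792 in Undiff and 2625 and 2855 in Day4 (-2.32). Exons of Ctbp2 overlap those of the same-strand gene Fgfr2, so that its count is uncertain. Lats2, a Hippo pathway kinase gene, rose most (3.45), and Gsk3b, whose kinase marks Snail protein for degradation, also rose (1.66). Ajuba (-1.58) and Pak1 (-1.03) were lower, and Pak1 was not called with library totals in place of TMM (-0.96).

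TGF-beta is the best known inducer of EMT, and 8 of 15 genes of its pathway were higher, 1 was lower, and the median log2 fold change was 1.78. Of the ligand genes, Tgfb3 had 52.1 and 52.6 normalized counts in Undiff and 18002 and 16526 in Day4 (log2 fold change 8.36), and Tgfb2 had 179 and 209 in Undiff and 12369 and 12485 in Day4 (6.00). Tgfb1 had a log2 fold change of 0.47 and was not a DEG. The coreceptor gene Tgfbr3 rose as well (4.28), and the gene of the SMAD inhibitor Skil was the lower one (-1.46). Of 6 microRNA genes of the miR-200 family and miR-205, which target Zeb1 and Zeb2, Mir429 had 4, 4, 1 and 0 counts in the 4 libraries, Mir200a had 1 count in a single Day4 library, and Mir200b, Mir200c, Mir141 and Mir205 had 0 counts in every library. None was a DEG, and all lay under the minimum mean. Mir429 had an edgeR adjusted p of 0.031 on these few counts, and mature microRNAs are too short for libraries of this kind.

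**Figure D5:**
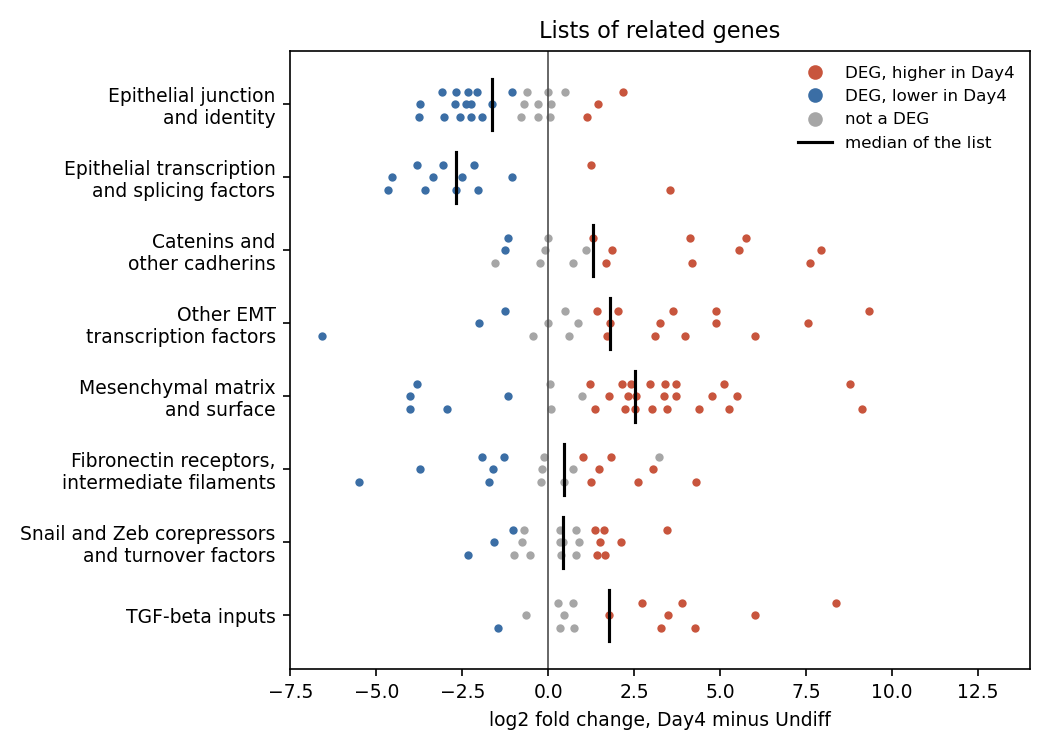
The log2 fold change of Day4 against Undiff for each tested gene of 8 lists, with DEGs higher in Day4 in red, DEGs lower in Day4 in blue, genes that were not DEGs in grey and the median of each list as a black line. The medians run from -2.68 for epithelial transcription and splicing factors to 2.52 for mesenchymal matrix and surface genes.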

How the data were processed

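Per the labels and the methods of the study, cutadapt was used by the authors for trimming, STAR 2.4.2a for alignment to mm10 and htseq-count for assigning fragments to genes. The deposited values are raw counts, listed by gene symbol. The methods state that counting took account of strandedness and name a strand-specific setting for the Direct RNA libraries, with no setting spelled out for TruSeq. Fragments on no gene were left out, and they made up 12.1% and 13.2% in the Undiff libraries and 7.50% and 7.74% in the Day4 libraries.

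TMM scaling and the test were done in edgeR 4.0.16 under R 4.3.3 (glmQLFit with its current quasi-dispersion estimate, and glmQLFTest), without a replicate term, and p-values were adjusted by Benjamini-Hochberg over 19891 genes. The thresholds are those of the study. The standard error is the size of the log2 fold change divided by the square root of F. GENCODE vM21 (GRCm38, the assembly that mm10 names) gave positions and lengths, matched by symbol for 23376 of 24421 genes, which carried 97.6% of the counts. Exact tests and intervals used scipy 1.17.1.

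Members and lists were chosen with earlier results of these data known. From each list, up to 3 DEGs with the highest and up to 3 with the lowest log2 fold change are named, with the genes that were not DEGs where a list moved mostly in a single direction. Some genes that this rule names are not reported here. Alternatives were DESeq2 1.42.0 with and without shrinkage, its size factors, library totals, filterByExpr, a replicate block, thinning to 32099074 counts, a threshold test at a fold change of 2 (glmTreat), no minimum count, each library left out and the longest transcript length. The robust and legacy quasi-dispersion estimates were chosen after seeing the data.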

Additional observations from a re-analysis of the deposited data

How the results depend on the processing

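All 10 genes were called in the same direction, 7 higher and 3 lower, in each of the 15 alternatives. Leaving out single libraries gave log2 fold changes from -5.91 to -5.40 for Cdh1 and from 2.72 to 3.26 for Snai1, the widest ranges among the 10 genes, with the lone library of a state assumed to vary like the other state. With thinning, the adjusted p from edgeR of Snai1 was 2.8e-04, the highest of any member in any alternative. The other members also reached far higher adjusted p from edgeR than in the main fit. Their highest values ran from 1.0e-05 for Cdh2 and Vim to 4.2e-05 for Zeb2, all with thinning. For Cdh1 the highest was 2.3e-05, with the robust estimate. The size of each adjusted p thus depends strongly on the setting, while the calls did not change. Lengths of the longest transcript gave Cdh1 shares of 98.8% in Undiff and 12.1% in Day4 and a Zeb1 share of 84.8% in Day4, and moved 18 of 20 mean TPM values by more than the replicate SD.

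Both states use replicate numbers 1 and 2, but the deviations of same-numbered libraries were not correlated (r = -0.005 across 13318 genes), so that the numbers were not taken as pairs. With a replicate block, 8515 genes were DEGs in place of 8521, with all 10 members among them. Of the list counts, the epithelial factors higher in Day4 fell from 2 to 1 in 6 alternatives, and the catenins and cadherins lower in Day4 from 2 to 1 in 2. The microRNA genes left aside, these were the only list counts that moved by over 1.5 times, and no count of DEGs over all genes did. Smaller shifts occurred in other lists. For example, the corepressors and turnover factors lower in Day4 numbered 4 by DESeq2 and 2 with library totals, in place of 3. With 2 libraries per state, edgeR borrows the spread from other genes for each adjusted p.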
